A study of Homo sapiens with 6 samples.

Results

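The carcinoembryonic antigen family was examined through 6 genes in 22Rv1, an established cell line from a human prostate carcinoma: CEACAM1, CEACAM5, CEACAM6, CEACAM7, CEACAM19 and CEACAM21. They were taken by symbol from the authors' TPM table, 6 of 57500 genes, and the same identifiers were read in the 6 count tables. The genes had been picked with the difference between the groups of cells already known, so their own differences are given below as a description, and whether a member was called in the fit across all genes supports nothing. One group of 3 libraries was made from 22Rv1 cells that had been recovered from a metastasis in the liver, here called liver-derived, and the other group of 3 came from control 22Rv1 cells labelled as wild type, called parental. Both groups are the same human cell line grown in serum-supplemented RPMI medium, and RNA was polyA-selected and read as pairs of 150 bases. Neither separate recoveries from the liver nor separate cultures are named in the labels, so the spread between libraries may be technical, and the spread between derivations is not measured. A further condition in the design text was not analysed here.

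CEACAM proteins are cell-surface glycoproteins of the immunoglobulin superfamily that bind each other, within and between cells, through their outermost domain. CEACAM5 (carcinoembryonic antigen itself), CEACAM6 and CEACAM7 are held in the membrane by a glycosylphosphatidylinositol (GPI) anchor, whereas CEACAM1, CEACAM19 and CEACAM21 span it. CEACAM5 and CEACAM6 are known from epithelia of the gut and from many carcinomas, CEACAM6 also from granulocytes, and CEACAM5 is a serum tumour marker and a target of antibody-drug conjugates.

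The genes lie on the long arm of chromosome 19 (GRCh38, positions from the count tables). CEACAM21 (ENSG00000007129) spans 41549518 to 41586844 on the plus strand, CEACAM7 (ENSG00000007306) 41673307 to 41706976 on the minus strand, CEACAM5 (ENSG00000105388) 41708585 to 41729798 on the plus strand and CEACAM6 (ENSG00000086548) 41750977 to 41772208 on the plus strand. CEACAM1 (ENSG00000079385) spans 42507304 to 42561234 on the minus strand, and CEACAM19 (ENSG00000186567) 44662278 to 44684359 on the plus strand.

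The promoters of the GPI-anchored genes and of CEACAM1 are shown because they come from recently duplicated genes whose RNA levels differed widely in these cells. Each window is from RefSeq (GRCh38.p14), runs 5′ to 3′ on the gene's own strand from 250 bases before the RefSeq start to 50 bases after it, and has the letters CACGTG in capitals. CACGTG is the E-box bound by the factors USF1 and USF2. The windows are chr19:41708376-41708675 (plus strand) for CEACAM5, chr19:41755280-41755579 (plus) for CEACAM6, chr19:41688221-41688520 (minus) for CEACAM7 and chr19:42528432-42528731 (minus) for CEACAM1.
CEACAM5: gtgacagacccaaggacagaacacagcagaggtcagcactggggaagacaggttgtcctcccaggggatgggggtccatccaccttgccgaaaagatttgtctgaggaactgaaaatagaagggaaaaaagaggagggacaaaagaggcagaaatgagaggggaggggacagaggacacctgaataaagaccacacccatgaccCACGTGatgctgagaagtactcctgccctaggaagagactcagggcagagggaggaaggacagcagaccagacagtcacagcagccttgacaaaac
CEACAM6: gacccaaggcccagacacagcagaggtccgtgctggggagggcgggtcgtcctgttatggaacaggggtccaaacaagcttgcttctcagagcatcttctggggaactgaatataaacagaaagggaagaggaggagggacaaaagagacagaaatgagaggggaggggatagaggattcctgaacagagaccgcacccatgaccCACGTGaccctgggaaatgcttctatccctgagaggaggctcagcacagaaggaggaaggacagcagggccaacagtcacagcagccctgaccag
CEACAM7: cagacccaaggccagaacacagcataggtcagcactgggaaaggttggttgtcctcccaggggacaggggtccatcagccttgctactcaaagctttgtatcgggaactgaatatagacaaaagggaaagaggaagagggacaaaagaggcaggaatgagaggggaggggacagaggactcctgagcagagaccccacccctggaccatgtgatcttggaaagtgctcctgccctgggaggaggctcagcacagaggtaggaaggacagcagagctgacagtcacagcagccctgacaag
CEACAM1: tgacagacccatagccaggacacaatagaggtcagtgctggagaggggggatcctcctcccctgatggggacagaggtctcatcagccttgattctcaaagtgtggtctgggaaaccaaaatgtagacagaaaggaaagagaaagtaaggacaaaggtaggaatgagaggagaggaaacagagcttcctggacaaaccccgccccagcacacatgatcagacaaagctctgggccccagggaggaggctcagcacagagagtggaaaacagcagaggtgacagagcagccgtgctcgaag

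CEACAM5 and CEACAM6 each held CACGTG once, with its first base at -46 in CEACAM5 and at -45 in CEACAM6 (the base before the RefSeq start is -1). CEACAM1 and CEACAM7 did not hold it in this window, and neither did the RefSeq windows of CEACAM21. In global alignments with CEACAM6, the bases facing the E-box were CACGTG in CEACAM5, CATGTG in CEACAM7 and CACATG in CEACAM1. Of all 35116 promoters of this length in the table, 7.26% held CACGTG on either strand (the motif is its own reverse complement). The windows of CEACAM5 and CEACAM6 were identical at 81.7% of 289 aligned bases, those of CEACAM5 and CEACAM7 at 84.7% of 294, and those of CEACAM5 and CEACAM1 at 76.8% of 280. CEACAM7, whose window is nearest to that of CEACAM5 among these 3, was almost without reads, as given below. Whether likeness of the windows goes with RNA level was not tested.

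Other motifs were searched on both strands in the same windows. GGGCGG, the GC box of SP1 and in 45.0% of all promoters, was found in CEACAM6, in CEACAM1 and in both windows of CEACAM21. TATAAA was in CEACAM6 at -139, far upstream of the usual place of a TATA box, against 11.5% of all promoters. TGANTCA, the AP-1 site, was in none of the windows and in 7.71% of all promoters. A match describes letters and not binding. The RefSeq starts behind all 4 printed windows lie inside the gene spans of the count tables, which begin further upstream, and most so for CEACAM1 and CEACAM7.

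Before the values, the libraries were compared. Total counts were 53275252, 28395265 and 49522468 in liver-derived replicates 1 to 3, against 47079983, 46031158 and 50934457 in parental replicates 1 to 3. Parental replicate 2 stood apart: among genes averaging 50 or more counts, its chi-square per degree of freedom was 55.3 and 61.8 against the other parental libraries, whereas these gave 2.24 against each other and the liver-derived pairs gave 2.45 to 3.15. Counts of called genes are also given without this library below. After the filter on low counts 19255 genes were tested, of which 38.8% were called (edgeR's quasi-likelihood test, p adjusted by Benjamini-Hochberg and under 0.05). In liver-derived cells 17.5% were higher and 21.3% were lower. Without parental replicate 2 the shares were 59.8%, 28.8% and 31.0%.

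CEACAM6, the most abundant of these transcripts in both groups, was high in all liver-derived libraries and low in all parental ones. It stood at 91.0, 93.0 and 95.6 TPM (a transcript level scaled to gene length and library size) in liver-derived replicates 1 to 3, against 2.81, 2.18 and 2.73 TPM in parental replicates 1 to 3. The groups did not overlap, and the liver-derived libraries lay close together. The reads behind these levels were 4120, 2253 and 4054 in the liver-derived libraries and 113, 88 and 118 in the parental libraries. In CPM, counts scaled to a common library size, the means were 81.0 ± 2.33 in liver-derived and 2.17 ± 0.203 in parental cells (SD, n = 3 each). The fitted log2 fold change was 5.22 (SE 0.10), and 5.15 without parental replicate 2. It ranked 10 by fitted log2 fold change among the 19255 genes tested. In a bulk sample, a change in the number of expressing cells and a change in RNA per cell cannot be told apart.

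CEACAM5 was near the limit of detection in parental cells and low but clearly present in the liver-derived cells. Its levels were 3.20, 3.27 and 3.35 TPM in the liver-derived libraries, against 0.0906, 0.158 and 0.273 TPM in the parental libraries. These rest on 159, 87 and 156 reads in the liver-derived libraries and on 4, 7 and 13 reads in the parental libraries. The groups did not overlap. Mean CPM was 3.12 ± 0.0849 in liver-derived and 0.161 ± 0.0823 in parental cells (SD, n = 3 each), with a fitted log2 fold change of 4.24 (SE 0.26). With so few parental reads the size of the fold is loosely set: it was 3.92 without parental replicate 1 and 4.70 without parental replicate 3.

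CEACAM1, the transmembrane member whose cytoplasmic tail can recruit the phosphatases SHP-1 and SHP-2, showed a smaller difference at a low level. It stood at 1.44, 1.62 and 1.33 TPM in the liver-derived libraries, against 0.398, 0.493 and 0.332 TPM in the parental libraries. These rest on 118, 71 and 102 liver-derived reads and 29, 36 and 26 parental reads. The groups did not overlap. Mean CPM was 2.30 ± 0.223 in liver-derived and 0.628 ± 0.152 in parental cells (SD, n = 3 each), with a fitted log2 fold change of 1.87 (SE 0.20), and 2.06 without parental replicate 2. CEACAM1 shares 185 exonic bases with LIPE-AS1, a gene on the opposite strand with 405 reads in all liver-derived and 534 in all parental libraries. LIPE-AS1 itself was fitted at -0.22 on the log2 scale and was not called (edgeR).

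CEACAM19, a less studied transmembrane member, was low in both groups and its values overlapped. It stood at 0.518, 0.266 and 0.498 TPM in the liver-derived libraries, against 0.262, 0.306 and 0.190 TPM in the parental libraries, from 11 to 40 reads in liver-derived and 14 to 21 reads in parental libraries. Liver-derived replicate 2, with the fewest counts in all, lay inside the parental range. The fitted log2 fold change was 0.85 (SE 0.33) and did not pass the threshold. It passed when either liver-derived replicate 2 (1.06) or parental replicate 2 (1.05) was left out. CEACAM19 shares 121 exonic bases with PVR on the same strand, a gene at 118 CPM in liver-derived and 107 CPM in parental cells whose fitted log2 fold change was 0.14. CEACAM16-AS1, which lies across it on the opposite strand without shared exonic bases, held 73 reads in all liver-derived and 22 in all parental libraries.

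CEACAM21 and CEACAM7 did not pass the filter on low counts. CEACAM21 held 0, 7 and 4 reads in liver-derived replicates 1 to 3 and 2, 4 and 1 reads in parental replicates 1 to 3. Its groups overlapped, and both ends of the range came from liver-derived libraries. CEACAM7, a GPI-anchored member known from colon and pancreas, held 0 reads in all liver-derived libraries and 0, 0 and 1 in parental replicates 1 to 3. A count of 0 allows up to 3 reads, which is 0.0563 to 0.106 CPM on the plain library totals, without the scaling factors behind the other CPM values. Such limits cover counting error only. At this depth CEACAM7 RNA was therefore not detectable in liver-derived cells, although its gene lies directly upstream of CEACAM5.

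**Figure D1:**
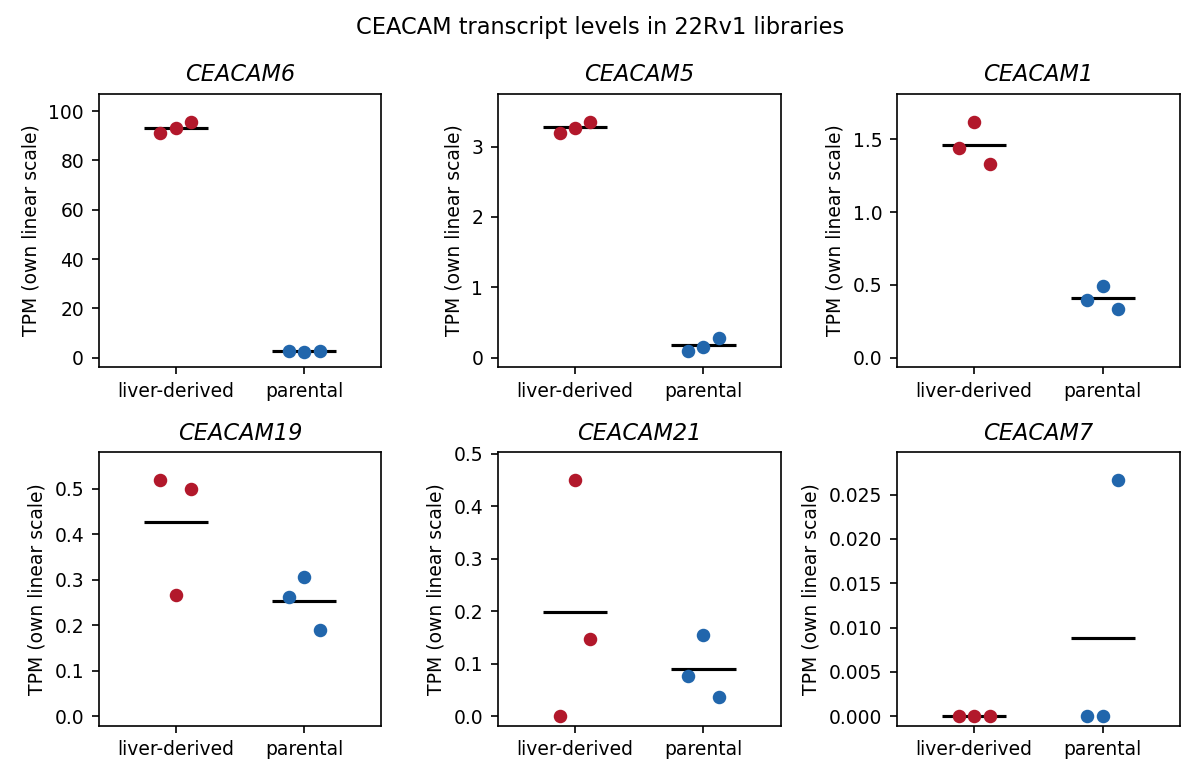
Levels in TPM of the 6 CEACAM genes in the 3 liver-derived (left, red) and 3 parental (right, blue) libraries, one point per library, with the group mean as a bar and an own linear scale in each panel. CEACAM6 lies at 91.0 to 95.6 TPM in liver-derived and at 2.18 to 2.81 TPM in parental libraries, CEACAM5 and CEACAM1 are separated at low levels, and the other panels rest on few reads.

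Of the 4 tested members, 3 were called (CEACAM1, CEACAM5 and CEACAM6), all higher in the liver-derived cells, beside 38.8% of all genes tested. The same 3 had groups that did not overlap, as did 54.0% of all genes tested. Since the members were picked with this difference known, nothing is read from these counts. Without liver-derived replicate 2, and likewise without parental replicate 2, all 4 were called.

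The make-up of CEACAM RNA differed between the groups. CEACAM6 made up 94.6%, 94.3% and 94.7% of the summed TPM of the 6 genes in liver-derived replicates 1 to 3, against 77.2%, 66.3% and 76.1% in parental replicates 1 to 3. The share of CEACAM1 was 1.32 to 1.64% in liver-derived and 9.26 to 15.0% in parental libraries, although its own level was higher in the liver-derived cells. The share of CEACAM5 was 3.32 to 3.33% in the liver-derived libraries and lay within the parental range of 2.49 to 7.63%. The ratio of CEACAM6 to CEACAM5 TPM was 28.4 to 28.5 in the liver-derived libraries and 9.97 to 31.0 in the parental libraries, where it rests on 4 to 13 CEACAM5 reads. The summed TPM of the 6 genes was 96.1, 98.6 and 101.0 in the liver-derived and 3.64, 3.29 and 3.58 in the parental libraries.

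**Figure D2:**
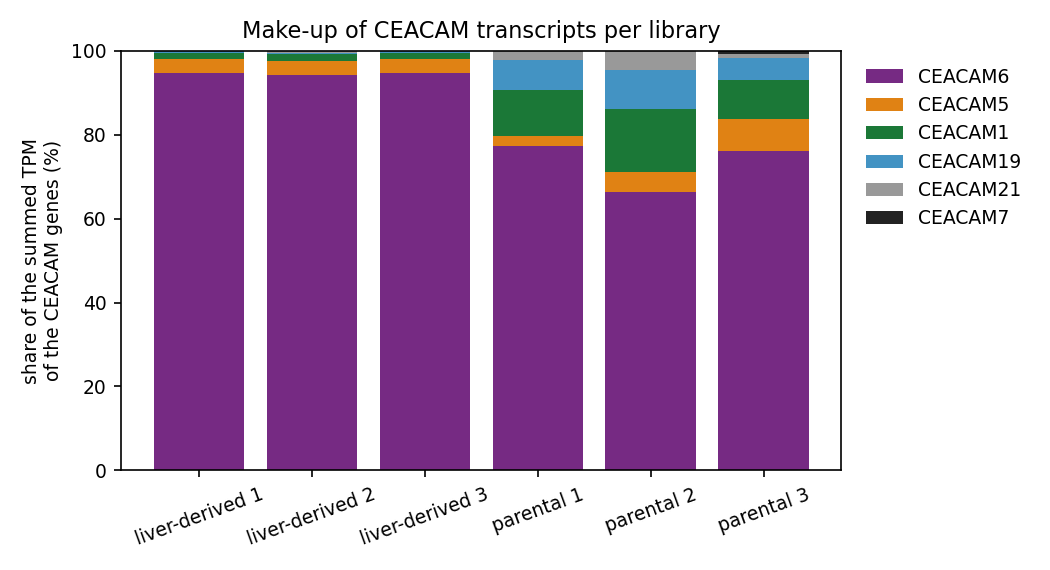
Share in percent of the summed TPM of the 6 CEACAM genes taken by each gene, one stacked bar per library, liver-derived libraries left of parental ones. CEACAM6 takes 94.3 to 94.7% in liver-derived and 66.3 to 77.2% in parental libraries, where CEACAM1 and CEACAM19 take most of the rest.

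The order of levels was CEACAM6, CEACAM5, CEACAM1, CEACAM19, CEACAM21 and CEACAM7 in the liver-derived cells, by mean TPM. There the ranges over libraries did not overlap between neighbours down to CEACAM19, while CEACAM19 and CEACAM21 overlapped, and so did CEACAM21 and CEACAM7. In the parental cells the order was CEACAM6, CEACAM1, CEACAM19, CEACAM5, CEACAM21 and CEACAM7. There CEACAM6 lay above CEACAM1 and CEACAM1 above CEACAM19 in all libraries, whereas CEACAM19 overlapped with CEACAM5, and CEACAM5 with CEACAM21. The parental ranges of CEACAM21 and CEACAM7 did not overlap, but they rest on 1 to 4 and 0 to 1 reads. CEACAM5 thus stood next to CEACAM6 in liver-derived cells, and below CEACAM1 and within the spread of its neighbours in parental cells.

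CEACAM genes are close paralogs, and the share of sequence that could not tell them apart was measured on GENCODE 29 transcripts. No exact stretch of 150 bases, the read length, was shared between any of the 6 genes and another CEACAM gene. Of the distinct stretches of 150 bases of CEACAM5, 10.7% were shared with another gene, in every case AC243967.1, a gene model on the same strand that overlaps both CEACAM5 and CEACAM6. For CEACAM6 this was 1 of 2903 stretches, and for CEACAM1, CEACAM7, CEACAM19 and CEACAM21 it was 0. At 75 bases, CEACAM6 shared 0.134% of its stretches with CEACAM8 and none with CEACAM5, and CEACAM1 shared 0.736% with CEACAM3. AC243967.1 (ENSG00000267881) was listed at 0 reads in all libraries although it shares 544 exonic bases with CEACAM5 and 172 with CEACAM6. How reads in those bases were assigned is not given in the sources used here. Reads with sequencing differences can still be placed on a paralog, so counts of the low members remain uncertain.

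The rest of the family was close to silent. Of 29 other CEACAM and pregnancy-specific glycoprotein (PSG) genes and pseudogenes, 12 held any read, none passed the filter on low counts, and the highest count in any library was 8 reads, of the pseudogene CEACAMP5. Over these genes, 29 reads were summed in the liver-derived and 18 in the parental libraries. CEACAM3 and CEACAM8, which like CEACAM6 are known from granulocytes, held at most 3 reads in a library. Of 11 PSG genes, which are expressed in placenta, 2 held any read. Family members other than CEACAM1, CEACAM5, CEACAM6 and CEACAM19 were therefore not measurable at this depth.

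Genes beside the CEACAM genes were called about as often as genes in general. Of 62 tested genes whose start lay within 500 kb of the start of a member, liver-derived cells had 8 called higher and 14 called lower, beside 17.5% and 21.3% of all genes tested, with a median log2 fold change of -0.04 against -0.01 over all genes tested. Those within 500 kb of CEACAM6 numbered 23, of which 2 were called higher and 3 lower. The tested genes next to CEACAM5 and CEACAM6 on either side were TPM3P5 at -0.31 and DMRTC2 at -0.15, followed by the ribosomal protein gene RPS19 at 0.07 on the log2 scale (edgeR, none called). These flanking genes were picked by position after the values were seen. When 1 liver-derived library was left out, whichever it was, 4 to 5 of the neighbours were called higher and 8 lower. Over all genes these fits called 2432 to 2644 higher and 3168 to 3287 lower, against 3375 and 4101 with all libraries. Without parental replicate 2, 20 neighbours were called higher and 15 lower, beside 28.8% and 31.0% of all genes tested. Without parental replicate 3, 5 neighbours were higher and 11 lower, beside 2939 and 3787 over all genes.

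Among the neighbours with large differences, TGFB1 and CNFN fell and CEACAM16-AS1 rose. CEACAM16-AS1 was low, at 0.546 ± 0.105 CPM in liver-derived and 0.1525 ± 0.0589 CPM in parental cells (log2 fold change 1.87, edgeR adjusted p = 0.00271). TGFB1, the gene of transforming growth factor beta 1, whose exons overlap HNRNPUL1 on the opposite strand, stood at 7.70 ± 1.37 CPM in liver-derived and 34.4 ± 4.19 CPM in parental cells (SD, n = 3 each; log2 fold change -2.17, edgeR adjusted p = 3.93e-06). CNFN, which encodes cornifelin of the epidermal cornified envelope, stood at 1.30 ± 0.279 CPM in liver-derived and 4.79 ± 1.20 CPM in parental cells (-1.90, edgeR adjusted p = 1.88e-04). Within 500 kb of CEACAM1, 0 of 17 tested genes were called higher and 7 lower by edgeR, beside 17.5% and 21.3% of all genes tested, and 0 were higher at an unadjusted p under 0.05. These are few genes, and the difference from those shares was not tested.

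**Figure D3:**
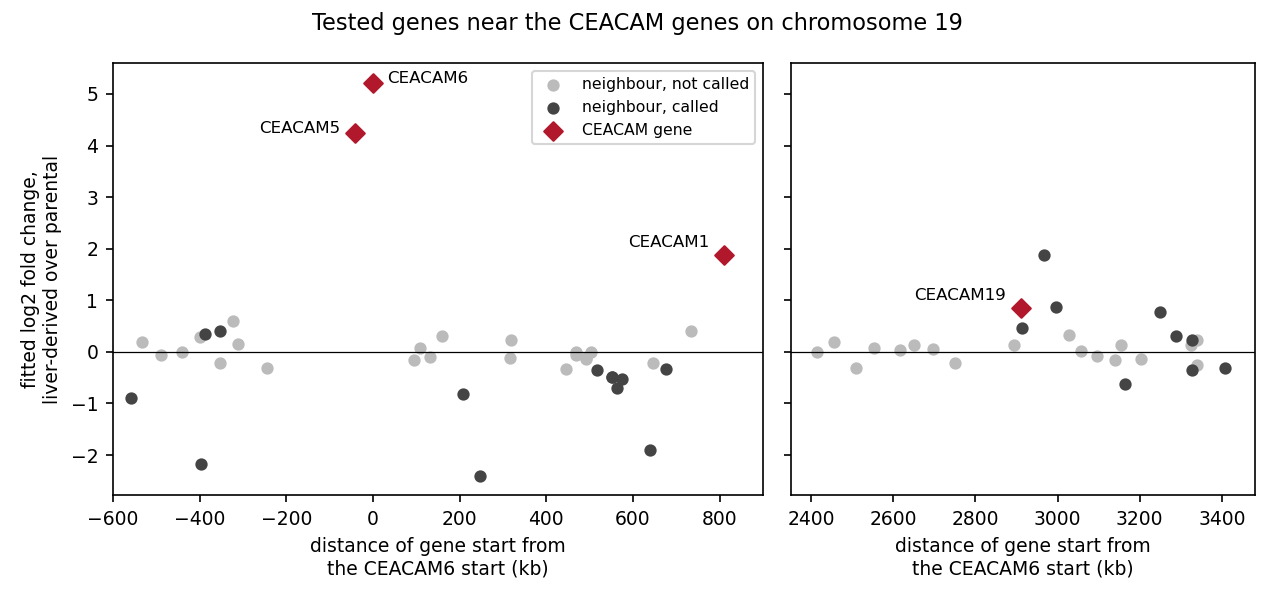
Fitted log2 fold change (liver-derived over parental) of tested genes near the CEACAM genes, against the distance in kb of each gene's start from that of CEACAM6, in 2 panels with a gap between them. Diamonds are CEACAM genes, dark points neighbours called by edgeR and pale points neighbours not called. CEACAM6 at 5.22 and CEACAM5 at 4.24 stand above all tested neighbours, of which the highest lies at 1.87.

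Transcription factors that have been reported at CEACAM promoters were read as a list of 18, of which 15 were tested. Of these, 6 rose and 2 fell, beside 17.5% and 21.3% of all genes tested, with a median log2 fold change of 0.08 against -0.01 over all genes tested. SOX9, a factor of gut and prostate progenitor cells, stood at 78.9, 79.4 and 82.4 CPM in liver-derived replicates 1 to 3, against 20.2, 17.8 and 20.8 CPM in parental replicates 1 to 3 (log2 fold change 2.03, edgeR adjusted p = 2.89e-07). The groups did not overlap, and all liver-derived libraries were high. KLF4, a zinc finger factor of differentiating epithelium, rose to 86.3 ± 1.74 CPM in liver-derived cells, against 35.8 ± 2.09 CPM in parental cells (1.27). KLF5, its relative of proliferating epithelium, rose to 53.4 ± 0.944 CPM in liver-derived cells, against 22.4 ± 2.00 CPM in parental cells (1.26). RELA, an NF-kappaB subunit, rose by 0.46 and IRF2, an interferon regulatory factor, by 0.40 on the log2 scale.

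The E-box factors did not pass the threshold. USF1, named like USF2 after its values were seen, stood at 75.9 ± 1.75 CPM in liver-derived and 79.8 ± 7.76 CPM in parental cells (-0.07), and USF2 at 168 ± 2.04 CPM in liver-derived and 176 ± 22.2 CPM in parental cells (-0.07). CDX1, a gut homeobox factor, was listed at 0 reads in all libraries, and CDX2 held 1 read in liver-derived replicate 3 and 0 elsewhere. Without liver-derived replicate 2, edgeR called 5 factors of the list higher and 0 lower, beside 2644 and 3287 over all genes. Without parental replicate 2, 6 were higher and 4 lower, beside 28.8% and 31.0% of all genes tested.

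Partners of CEACAM proteins moved both ways. Of 23 genes of proteins reported to bind CEACAM proteins or to signal from them, 21 were tested, 3 rose and 3 fell, beside the same background shares, with a median log2 fold change of 0.02. EGFR, the epidermal growth factor receptor, stood at 14.4, 14.5 and 13.4 CPM in liver-derived replicates 1 to 3, against 60.8, 58.3 and 60.4 CPM in parental replicates 1 to 3 (log2 fold change -2.09, edgeR adjusted p = 1.13e-07). The groups lay far apart with little spread in either. TNFRSF10B, the death receptor DR5, which overlaps RHOBTB2 on the opposite strand, stood at 208, 205 and 205 CPM in liver-derived libraries, against 71.3, 72.2 and 70.3 CPM in parental libraries (1.53, edgeR adjusted p = 2.27e-07). TGFBR1, the type I receptor for transforming growth factor beta, rose to 18.5 ± 1.91 CPM in liver-derived cells, against 7.47 ± 1.22 CPM in parental cells (1.30).

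Other members of this list differed less. CAV1, the gene of caveolin 1, fell to 3.08 ± 0.492 CPM in liver-derived cells, against 5.86 ± 0.274 CPM in parental cells (-0.94), and SYK, a tyrosine kinase of immune receptors, fell by 0.65 on the log2 scale. PTPN6 and PTPN11, the genes of SHP-1 and SHP-2 and named after their values were seen, did not pass the threshold: PTPN6 stood at 55.3 ± 3.75 CPM in liver-derived and 54.4 ± 7.06 CPM in parental cells, and PTPN11 at 349 ± 0.667 CPM in liver-derived and 308 ± 31.6 CPM in parental cells. Without parental replicate 2, 9 of the list rose and 7 fell, beside background shares of 28.8% and 31.0%. With any other single library left out, 2 rose, beside 2432 to 2939 called higher over all genes, against 3375 with all libraries.

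Genes of the GPI anchor, on which CEACAM5, CEACAM6 and CEACAM7 depend, were mostly not called. Of 32 genes of GPI synthesis, attachment, remodelling and cleavage, 31 were tested. Of these, 4 rose and 3 fell, beside 17.5% and 21.3% of all genes tested, with a median log2 fold change of -0.04. PIGP and PIGC, subunits of the enzyme that starts the anchor, rose to 29.4 ± 1.20 and 34.8 ± 1.72 CPM in liver-derived cells, against 18.1 ± 0.913 and 23.8 ± 0.906 CPM in parental cells (0.70 and 0.54 on the log2 scale). DPM3, of the dolichol-phosphate mannose synthase, fell to 47.6 ± 2.24 CPM in liver-derived cells, against 73.1 ± 14.8 CPM in parental cells (-0.62), with 90.1 CPM in parental replicate 2. PIGX, a mannosyltransferase subunit whose exons overlap NRROS, fell by 0.35 and PGAP3, a remodelling enzyme whose exons overlap ERBB2 on the opposite strand, rose by 0.29. Without parental replicate 2, 12 rose and 9 fell, beside 28.8% and 31.0% of all genes tested. With any other single library left out 2 rose and 1 to 2 fell. Over all genes those fits called 2432 to 2939 higher and 3168 to 3787 lower, against 3375 and 4101 with all libraries.

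Markers of cell types that carry CEACAM proteins were read beside these results. Of 17 gastrointestinal epithelium markers, 10 were tested, 4 rose and 2 fell, beside 17.5% and 21.3% of all genes tested (median log2 fold change 0.15). Without parental replicate 2, 4 rose and 3 fell, beside 28.8% and 31.0%. The summed level of the 17 markers was 147 to 151 CPM in liver-derived and 132 to 143 CPM in parental libraries. PHGR1, a gut epithelial gene, rose to 6.49 ± 0.358 CPM in liver-derived cells, against 1.25 ± 0.118 CPM in parental cells (2.37), and AGR2, a secretory-pathway gene, rose by 0.79, whereas MUC13, a membrane mucin, fell by 0.49. VIL1, whose exons overlap USP37 on the opposite strand, stood at 78.5 ± 0.208 CPM in liver-derived and 57.3 ± 6.33 CPM in parental cells (0.46). LGALS4 stood at 3.39 ± 0.0668 CPM in liver-derived and 2.52 ± 0.427 CPM in parental cells (0.43), and edgeR called both higher. The markers CDX1 and FABP1 were at 0 reads in all libraries, and TFF1 held 0 reads in liver-derived and 11 to 18 in parental libraries. VIL1, LGALS4, CDX1, FABP1 and TFF1 were named after their values were seen. Gut markers were therefore expressed in part by both groups, and their part in the CEACAM difference was not tested.

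Of 10 granulocyte markers, 6 were tested and edgeR called 0, beside 17.5% of all genes tested called higher and 21.3% lower. At an unadjusted p under 0.05 (edgeR), 1 of these markers was higher and 0 lower. By DESeq2 2 of them rose, as they did in number without the filter and without liver-derived replicate 3, whereas limma-voom called 0 and the fit with a replicate block 1. Their summed level was 6.96 to 15.1 CPM in liver-derived and 6.90 to 7.55 CPM in parental libraries, and CEACAM8 and FCGR3B held at most 1 read in a library. MPO, the marker higher at an unadjusted p under 0.05, stood at 2.83, 6.41 and 2.25 CPM in liver-derived replicates 1 to 3. In parental replicates 1 to 3 it stood at 2.02, 1.83 and 1.71 CPM (log2 fold change 0.99, edgeR adjusted p = 0.0532). Its groups did not overlap, nor did those of ELANE, which was lower in liver-derived cells (-0.28, not called). S100A9, whose groups overlapped, stood at 0.881, 2.00 and 0.288 CPM in liver-derived and 0.556, 0.375 and 0.322 CPM in parental replicates 1 to 3. These 3 genes were named after their values were seen. The part of granulocyte markers in the CEACAM difference was not tested.

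Hepatocyte markers summed to 84.0 to 88.2 CPM in liver-derived and 73.1 to 78.6 CPM in parental libraries, mostly ALB, the gene of albumin, at 65.8 ± 1.61 CPM in liver-derived and 47.7 ± 6.06 CPM in parental cells. Of 12 markers, 5 were tested, 3 rose and 2 fell, beside 17.5% and 21.3% of all genes tested. Without parental replicate 2, 4 rose and 2 fell, beside 28.8% and 31.0%. ASGR1, a hepatocyte lectin receptor gene, fell (log2 fold change -3.08), and ALB rose (0.46). Of 12 prostate luminal markers, all were tested, 3 rose and 7 fell, beside 17.5% and 21.3% of all genes tested (median -0.88). The largest falls were of HOXA13 (-3.64), KLK2 (-3.18) and TMPRSS2 (-2.58). Without parental replicate 2, 3 rose and 9 fell, beside 28.8% and 31.0%. The summed level of the 12 markers was 3569 to 3639 CPM in liver-derived and 3921 to 4134 CPM in parental libraries, so markers of the labelled cell type were present in both groups. The part of these markers in the CEACAM difference was not tested.

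**Figure D4:**
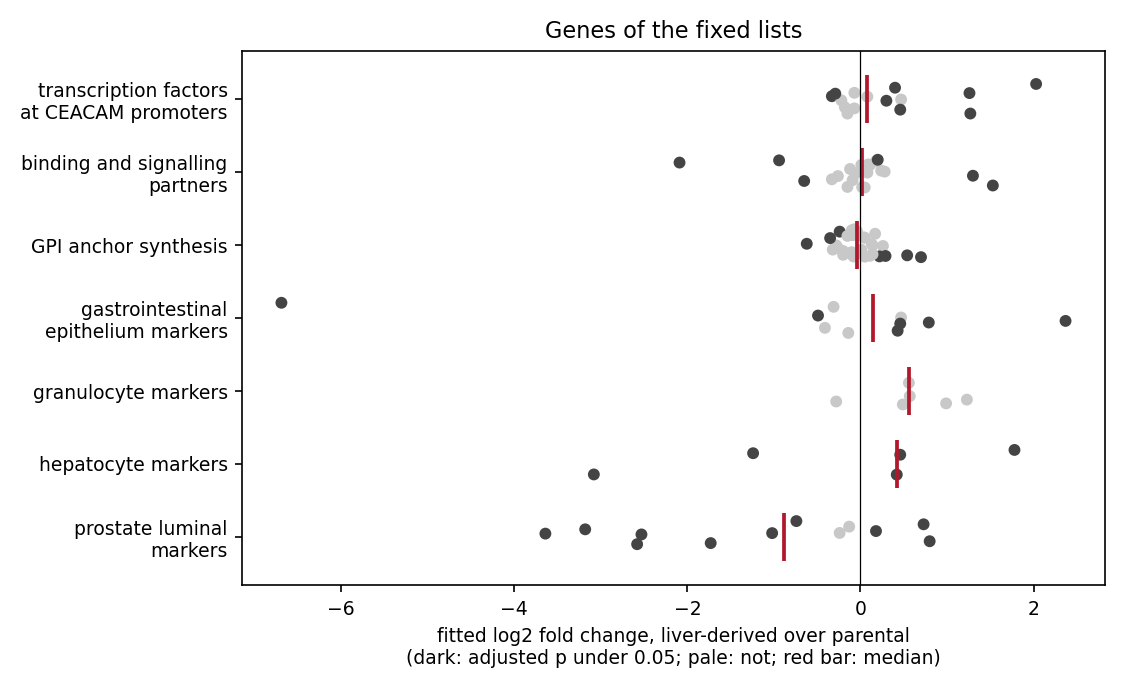
Fitted log2 fold change (liver-derived over parental) of every tested gene of 7 fixed lists, one point per gene with random vertical spread, dark where edgeR's adjusted p was under 0.05, and the list median as a bar. List medians lie between -0.88 for prostate luminal markers and 0.57 for granulocyte markers. The point furthest to the left among gastrointestinal markers is TFF1, with 0 reads in liver-derived libraries, whose fitted value depends on the prior count.

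Genes whose profile over the 6 libraries was most like that of CEACAM6 were found by the distance between log2 CPM values centred on each gene's mean, over 14641 protein-coding genes. With 2 groups of 3, such a profile is mainly the group difference. TGM2, which encodes a protein-crosslinking enzyme and shares 394 exonic bases with RPRD1B, was nearest (distance 0.35), followed by DSCAM, a neural adhesion molecule (0.42), SLC7A5, the light chain of the amino acid transporter LAT1 (0.47), PDZD7, which overlaps LZTS2 (0.54), and UGT3A1 (0.63). SLC7A5 stood at 8495 ± 110 CPM in liver-derived and 263 ± 28.4 CPM in parental cells, so genes of very different abundance shared this profile. For CEACAM5 the nearest were MATN2, an extracellular matrix adaptor (0.39), COL10A1, a collagen (0.56), PLA2G10, a secreted phospholipase (0.68), ADAM7 (0.82) and ESRRG, an orphan nuclear receptor (0.82). COL10A1 was as low as CEACAM5, at 2.88 ± 0.187 CPM in liver-derived and 0.209 ± 0.101 CPM in parental cells.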

How the data were processed

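Per the submitters' processing notes, the tools were Trimmomatic 0.36, STAR 2.5.2b and featureCounts of Subread 1.5.2, on the build GRCh38. Strand setting and annotation release: not given in the sources used here. The deposited files hold 1 table of raw counts for every library and a table of TPM, which the counts and gene lengths gave back within a relative difference of 1e-03. Of that table, 391182 rows without a gene were left out. Libraries were grouped by title.

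The counts went into edgeR 4.0.16 in R 4.3.3, with filterByExpr, TMM factors, robust quasi-likelihood fit with the group as the only term, and Benjamini-Hochberg adjustment over 19255 genes at 0.05. CPM are TMM-scaled. Symbols came from an identifier table (98.1% matched) and GENCODE 29. Promoters are from RefSeq, and 5 of the 6 genes had a window; promoters were aligned with Biopython 1.88. Proteins were not used here. Alternatives are given at the end. Members and lists were chosen with earlier results of these data known. Named genes were all members, up to 5 called genes of each list (3 for markers) by size of change among those reaching 1 CPM in either group, neighbours changed by a log2 fold change of at least 1, and the 5 nearest profiles. Some genes that this rule names are not reported here.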

Additional observations from a re-analysis of the deposited data

How the results depend on the processing

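The alternatives were RLE, upper-quartile or no scaling factors, no filter, a filter of 1 CPM in 3 libraries, DESeq2 1.42.0, limma-voom (limma 3.58.1), each library left out in turn, and the replicate number as a block. The log2 fold change of CEACAM6 ranged from 5.15 to 5.27, of CEACAM5 from 3.92 to 4.70 and of CEACAM1 from 1.71 to 2.06 over 14 alternatives. CEACAM19 ranged from 0.65 to 1.06 over 13, and passed the threshold in 2, at 1.06 and 1.05. These genes were picked with their difference known, so the ranges describe it and support nothing. CEACAM7 and CEACAM21 gave a value only without the filter, uncalled. The number of members called was 3 to 4 when a library was left out.

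Genes called numbered 5600 to 11870 when a library was left out (2432 to 5714 higher, 3168 to 6156 lower), against 7476 with all libraries, the highest each time without parental replicate 2. Without that library 28.8% of all genes tested were called higher and 31.0% lower, against 17.5% and 21.3% with all libraries. Leaving out a library gave 2 to 12 GPI anchor genes higher and 1 to 9 lower, and 2 to 9 partners higher and 3 to 7 lower. It gave 0 to 4 promoter factors lower, and 4 to 20 neighbouring genes higher and 8 to 15 lower. The highest of each of these counts came without parental replicate 2. Granulocyte markers called higher numbered 0 to 2 when a library was left out. With library size alone 2 GPI genes were higher and 5 partners lower. Granulocyte markers called higher numbered 2 without the filter and 2 by DESeq2. With the filter of 1 CPM, 1 gastrointestinal marker was lower. The cause of these shifts was not tested.

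No clear pairing by replicate number was seen: same-numbered deviations correlated at -0.01, 0.01 and 0.07, and differently numbered ones at -0.04 to 0.03. With 3 libraries per group these values cannot show that no pairing existed. With the replicate block 7052 genes were called, 2 GPI genes and 1 granulocyte marker were higher, and the members called stayed at 3. Depth limits CEACAM7, CEACAM21 and CEACAM19, and the parental level of CEACAM5.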
